A study of Mus musculus with 2 samples.

Results

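The genes described here are 50 mouse genes of mitosis, chosen by gene symbol from the mitotic cyclins and kinases, the chromosomal passenger complex, the spindle checkpoint, the kinetochore, the spindle, condensin and the machinery of cytokinesis, with kinesins left out. All 50 had a probe on the array, and 47 of them had a probe well above background on both arrays, among 15030 named genes for which this held. The data are 2 Agilent mouse arrays, each hybridised with Cy3-labelled total RNA from cultured RAW246.1 cells, a mouse line that the labels call macrophage, grown in DMEM. The PBS group, the mock treatment, had 1 array, and the group given synthetic miR-122, a microRNA best known from liver cells, had 1 array. The stated dose is 5 μg/mL, with no time given. With 1 array per group no test was possible, and the differences were not checked in replicates.

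In mitosis, cyclin B with Cdk1 starts chromosome condensation and spindle assembly, and kinetochores built on centromeric chromatin attach each chromosome to spindle microtubules. The spindle checkpoint holds the anaphase-promoting complex in check until all kinetochores are attached. That complex then marks cyclins and securin for destruction, separase cuts cohesin, and the cell divides in cytokinesis. Most of these genes are transcribed in the G2 and M phases and repressed in resting cells, so their RNA is commonly read as a mark of proliferating cells. Cells of a cultured line divide continuously, unlike most tissue macrophages.

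Many promoters of this gene class hold a cell cycle genes homology region, or CHR, and CCAAT boxes. The CHR is bound by MuvB complexes, which repress in resting cells and, together with B-MYB or FOXM1, activate in G2 and M. The last 150 bases before the annotated start of 6 of the genes are shown from RefSeq, assembly GRCm38.p6, 5′ to 3′ on the strand of the gene, with CHR and CCAAT letters of either strand in capitals. Mki67, Top2a, Cdk1 and Cdc20 are shown as genes with these letters whose RNA was at least 2-fold lower after miR-122. Bub3 has the same letters and hardly differed between the arrays, and Pttg1 has none of them in this stretch and was higher. The 6 were chosen after their values were seen.
Mki67: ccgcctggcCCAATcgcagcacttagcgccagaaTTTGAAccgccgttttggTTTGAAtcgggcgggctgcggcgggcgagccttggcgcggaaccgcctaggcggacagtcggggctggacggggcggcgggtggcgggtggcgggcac
Top2a: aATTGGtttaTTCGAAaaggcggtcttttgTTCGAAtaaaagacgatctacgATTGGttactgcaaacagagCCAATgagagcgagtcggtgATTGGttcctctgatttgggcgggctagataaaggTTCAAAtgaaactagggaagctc
Cdk1: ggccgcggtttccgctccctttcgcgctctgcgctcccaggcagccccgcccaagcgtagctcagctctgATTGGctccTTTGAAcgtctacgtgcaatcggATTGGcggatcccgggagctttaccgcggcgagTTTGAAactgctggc
Cdc20: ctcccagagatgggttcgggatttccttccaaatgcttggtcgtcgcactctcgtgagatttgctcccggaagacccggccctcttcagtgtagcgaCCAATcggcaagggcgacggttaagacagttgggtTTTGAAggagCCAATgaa
Bub3: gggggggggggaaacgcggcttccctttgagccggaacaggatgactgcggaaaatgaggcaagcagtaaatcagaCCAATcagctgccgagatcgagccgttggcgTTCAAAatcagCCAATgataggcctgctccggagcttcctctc
Pttg1: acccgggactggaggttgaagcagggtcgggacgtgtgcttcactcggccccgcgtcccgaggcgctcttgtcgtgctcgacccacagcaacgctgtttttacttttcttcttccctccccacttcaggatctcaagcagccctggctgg
The stretches lie at chr7:135716380-135716529 on the minus strand, chr11:99024190-99024339 on the minus strand, chr10:69352913-69353062 on the minus strand, chr4:118437344-118437493 on the minus strand, chr7:131560220-131560369 on the plus strand, and chr11:43425982-43426131 on the minus strand. In Mki67 the CHR letters begin 116 and 98 bases before the start, and in Cdk1 71 and 15 bases before it. In Cdc20 they begin 18 bases before the start and in Bub3 43 bases before it. Top2a has 3 CHR matches and 4 CCAAT matches in this stretch.

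Both arrays lay on the same slide, at neighbouring positions, so the position on the slide cannot be told apart from the treatment. The 2 samples carry identical treatment text, and the title of the one described as given miR-122 says that it was without it, so the direction of every difference rests on the source name, which no gene here checks. Of 39427 non-control probes, the scanner software marked 71.8% on the PBS array as well above background, and 69.9% on the other array; saturated spots were not found. All 11 macrophage markers with a matched probe, of 12 listed, were well above background on both arrays, with signals from 60.7 to 46202 on the PBS array and from 73.0 to 30847 on the miR-122 array. Their differences ran both ways, with 5 negative and 6 positive, and a median of 0.25. They ranged from -0.85 for Itgam to 1.82 for Laptm5, the 1 past 2-fold. The hepatocyte markers had signals up to 30.4 and 50.2, with Alb and Apoa1 not well above background on either array. Among the T and NK cell markers, Cd4 had 788 and 676, Cd3e 229.6 and 146, and Lck 374 and 628, with a difference of 1.02 for Lck, past 2-fold, while Cd3d and Klrb1c were not well above background on either array. Endothelial markers reached 336 and 297 through Kdr. The medians of the marker lists of 6 other cell types lay between 0.11 and 0.63, with markers not well above background included. Over markers well above background on both arrays these medians lay between 0.33 and 0.62. The part of these cell types in the results was not tested.

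Signals are the scanner software's processed intensities before scaling, and a difference is the log2 signal on the miR-122 array minus that on the PBS array after the 75th percentile of each array was subtracted. Before that step the 75th percentiles differed by -0.28, so the fold of a lower gene is smaller, and that of a higher gene larger, than the plain ratio of its signals. The error printed with a difference is the software's own signal error carried to the log2 scale. It ran from 0.20 to 0.39 over the genes, with a median of 0.21, and covers neither the spread between cultures nor that between probes. Different probes of the same gene differed with a pooled SD of 0.30 over 3575 genes.

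The mitotic genes were lower on the miR-122 array nearly throughout. Of the 47 measured, 32 were at least 2-fold lower, 68.1%, where 1.78% of all named genes were at least 2-fold lower. Pttg1 was the 1 gene at least 2-fold higher, where 4.57% of all named genes were, and 14 did not reach 2-fold. A negative difference was found for 46 of the 47, against 39.7% of all named genes. The median difference was -1.11, or 2.16-fold lower, with quartiles of -1.52 and -0.73, while all named genes had a median of 0.09 and quartiles of -0.16 and 0.34. A smaller share of dividing cells and less of each RNA per cell cannot be told apart in bulk RNA of this kind.

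**Figure D1:**
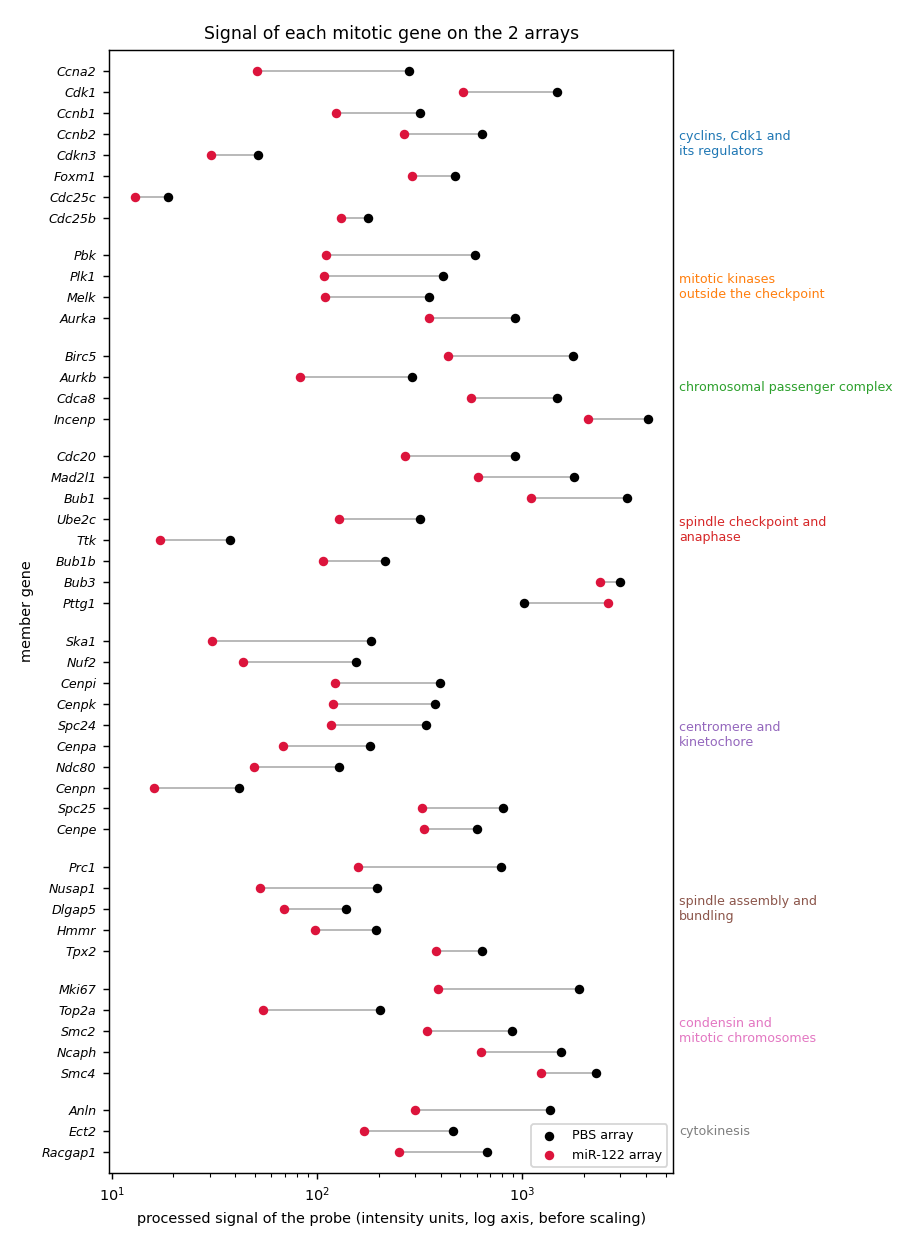
Processed signal (intensity units, log axis) of the probe used for each of the 47 measured genes, black for the PBS array and red for the miR-122 array, grouped by role. Signals ran from 18.7 to 4083 on the PBS array and from 13.0 to 2619 on the miR-122 array, and the red point lies left of the black one for every gene except Pttg1.

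Of the 268 named genes at least 2-fold lower, 32 belonged to the 50, which is 11.9%, and at 4-fold they were 5 of 17, or 29.4%. Ranked from the lowest difference among the 15030 genes, Ska1 stood at place 7, Ccna2 at 9, Pbk at 10, Prc1 at 14 and Mki67 at 15. That order depended on the processing. With normexp the differences were -1.89 for Mki67, -1.75 for Prc1, -1.72 for Pbk, -1.30 for Ccna2 and -1.22 for Ska1. Normexp here is a background correction followed by an offset of 50 added to every intensity. The offset by construction makes the differences of dim genes smaller, and its part was not separated from that of the correction. Over all genes 687 were at least 2-fold higher, so that 71.9% of the genes past 2-fold were higher. With median scaling that share was 50.8%, and with quantile normalization and with the authors' values it was 59.9%. Median scaling moved every difference by -0.18, so by construction the median of the mitotic genes relative to that of all genes stayed at -1.20. With normexp that relative median was -1.02. Normexp with its offset had a larger effect on the count than the scaling: 19 of the 47 were then at least 2-fold lower. The median of the 47 was then -0.91. Of the 32 genes, 20 were past 2-fold by more than their own scanner error, and for 12 the error reached across the 2-fold line.

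**Figure D2:**
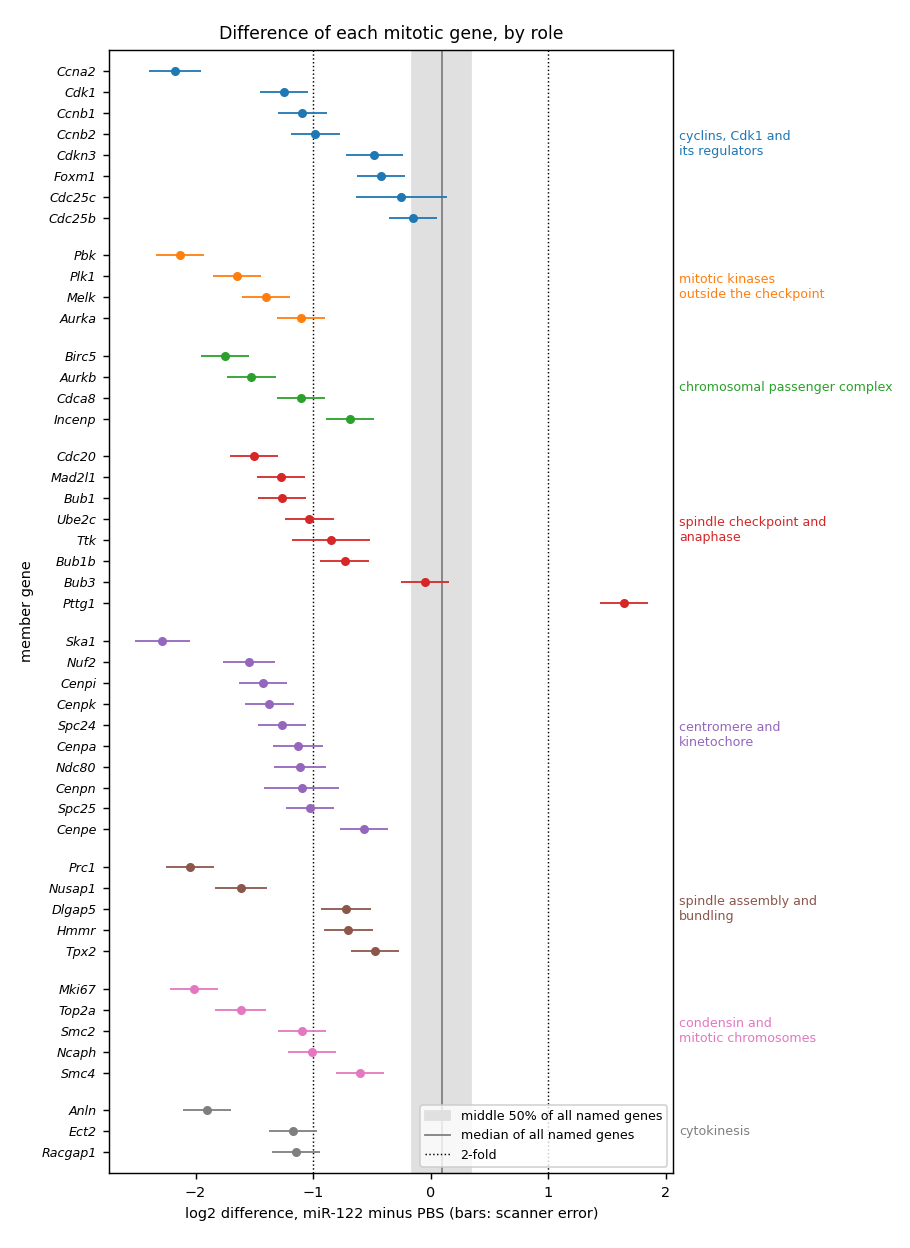
Log2 difference, miR-122 minus PBS, of each of the 47 measured genes, coloured by role, with bars for the scanner error (1 array per group). The grey band from -0.16 to 0.34 holds the middle 50% of all named genes, and the dotted lines mark 2-fold. Ccna2, Pbk, Ska1, Prc1 and Mki67 lie farthest left, and Pttg1 alone lies past the right line.

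Among the cyclins, Cdk1 and its regulators, 3 of 8 genes were at least 2-fold lower, and the group had a median of -0.73. Ccna2, which encodes cyclin A2, the partner of Cdk2 and Cdk1 in S phase and G2, had a PBS signal of 281 and a miR-122 signal of 51.3. Its difference was -2.18 ± 0.22 (scanner error), or 4.52-fold lower, and 2.46-fold lower with normexp. Cdk1, the kinase that drives entry into mitosis, had signals of 1480.2 and 515, a difference of -1.25 ± 0.20. A second probe of Cdk1, at 541 and 169, differed by -1.40. Another, at 12.5 and 11.2, was not well above background on the miR-122 array. The cyclin B genes, whose products activate Cdk1, lay on both sides of 2-fold. Ccnb1 had signals of 318 and 123, a difference of -1.09, and its other probes differed by -1.48 and -0.97. Ccnb2 had 634 and 265, a difference of -0.98, just short of 2-fold. With normexp Ccnb1 was 1.81-fold lower, and with median scaling Ccnb2 was 2.23-fold lower.

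The 4 other genes of this group, Cdkn3, Foxm1, Cdc25b and Cdc25c, had differences between -0.48 and -0.15. These were smaller than those of the cyclins and the kinase itself. Cdkn3, a phosphatase that acts on Cdk1 and Cdk2, had signals of 51.6 and 30.6, a difference of -0.48. Foxm1, the transcription factor of G2 and M genes, had 471 and 290.2, a difference of -0.42 ± 0.20. A dim second probe of Foxm1 went the other way, at 5.34 and 13.8, and was not well above background on the PBS array. Cdc25b and Cdc25c, phosphatases that remove the inhibitory phosphates of Cdk1, differed by -0.15 ± 0.21 and -0.25 ± 0.39, within the scanner error. Cdc25c was dim, at 18.7 and 13.0, and with normexp its sign turned, to 0.16. Cdc25b, at 177 and 131, was not dim.

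All 4 mitotic kinases outside the checkpoint were at least 2-fold lower, and their median difference was -1.52. Pbk, a kinase active in mitotic cells, had signals of 589 and 111, a difference of -2.13 ± 0.21, or 4.39-fold lower. Plk1, the polo-like kinase of centrosome maturation, kinetochore attachment and cytokinesis, had 411 and 108, a difference of -1.65 ± 0.21. Melk, a kinase expressed in dividing cells, had 351 and 109.8, a difference of -1.40. Aurka, which encodes the Aurora kinase of the spindle poles, had 917 and 353, and at -1.10 ± 0.20 its error reached across 2-fold. The kinase genes had PBS signals from 351 to 917, well clear of the lowest probe signals called above background, 10.8 and 11.5 on the PBS and miR-122 arrays, and all 4 were also past 2-fold with normexp.

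The chromosomal passenger complex, which corrects faulty attachments at centromeres and later acts at the midzone, was lower in each of its 4 genes, 3 of which reached 2-fold, and its median difference was -1.32. Birc5, which encodes the subunit survivin, had signals of 1762 and 433, a difference of -1.75 ± 0.20, or 3.36-fold lower. Its other probes, at 183 and 57.4 and at 114 and 37.2, differed by -1.40 and -1.34. The kinase gene Aurkb had 290.0 and 83.1, a difference of -1.53 ± 0.21. Cdca8, which encodes borealin, had 1470.2 and 563, a difference of -1.11, with -0.90 for a second probe. Incenp, the scaffold of the complex, differed less than its partners. It was the brightest of the 47 genes on the PBS array, at 4083, against 2091 on the miR-122 array, a difference of -0.69 ± 0.20, with -0.59 for a second probe.

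The genes of the spindle checkpoint and of anaphase ranged from -1.51 to 1.64, with 4 of the 8 measured at least 2-fold lower, 1 higher and a median difference of -0.94. Cdc20, which activates the anaphase-promoting complex and is the target of the checkpoint, had signals of 924 and 269, a difference of -1.51 ± 0.20. Mad2l1, which encodes the checkpoint protein that binds Cdc20, had 1784 and 608, a difference of -1.28. Dimmer probes of Mad2l1 differed by -1.03 and -0.21, and the mean over its 3 probes was -0.84, short of 2-fold. Bub1, the kinase that recruits checkpoint proteins to kinetochores, had 3219 and 1103, a difference of -1.27 ± 0.20. Its probe was printed 10 times on each array, and its log2 signal varied over those spots with an SD of 0.08 for PBS and 0.06 for miR-122. The difference of Bub1 was thus many times the spread between spots, which says nothing of the spread between cultures. Ube2c, the ubiquitin-conjugating enzyme of the anaphase-promoting complex, had 316 and 127, a difference of -1.03, with -1.24 for a second probe. It was 1.74-fold lower with normexp.

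Other checkpoint genes did not reach 2-fold. Ttk, which encodes the checkpoint kinase MPS1, was dim at 37.6 and 17.2, with a difference of -0.85 ± 0.33, past 2-fold with median scaling and 1.06-fold lower with normexp. Bub1b, which encodes BUBR1, had 215 and 107, a difference of -0.73 ± 0.21. Bub3, the partner of BUB1 and BUBR1, had 2998 and 2394, a difference of -0.05 ± 0.20, within the scanner error. The binding partners thus had different values on these arrays, with Bub1 2.41-fold, Bub1b 1.66-fold and Bub3 1.03-fold lower.

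Pttg1 was the exception. It encodes securin, the inhibitor of separase that is destroyed at anaphase, and had a PBS signal of 1017 and a miR-122 signal of 2619, a difference of 1.64 ± 0.20, or 3.12-fold higher. A second, dim probe of Pttg1, at 18.7 and 30.7, differed by 0.99, just short of 2-fold. The difference of Pttg1 was between 1.32 and 1.64 under all 13 processing settings compared at 2-fold. Espl1, which encodes separase itself, had 29.6 on the PBS array against 9.15 on the other, where it was not well above background, so that it was at least 2.12-fold lower. As reported, the inhibitor and its enzyme thus differed in opposite directions between the 2 arrays. Espl1 was dim, however, and its bound takes no account of the scanner error and was not computed with normexp.

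**Figure D3:**
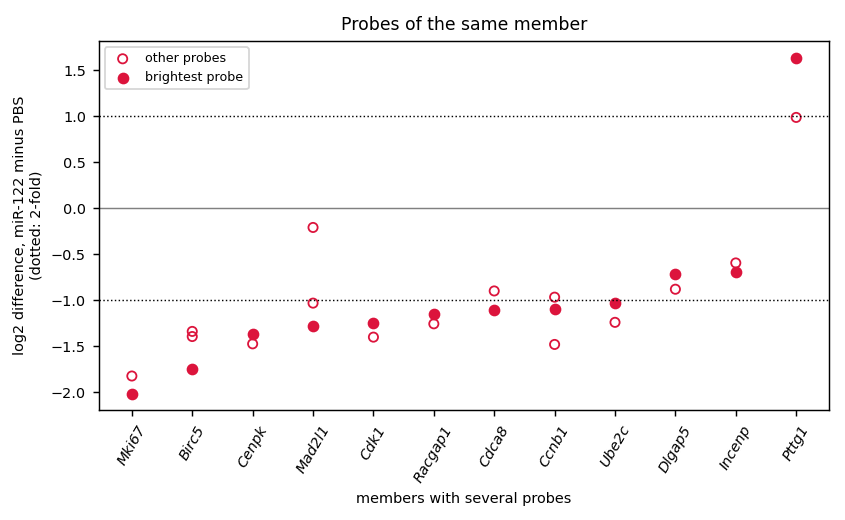
Log2 difference of every probe well above background on both arrays, for the 12 genes with several such probes, with the brightest probe filled. In all 12 the probes share a sign, with a pooled SD of 0.28, and Mad2l1 and Pttg1 show wide gaps between probes.

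The centromere and kinetochore genes were the largest role and were lower throughout, 9 of the 10 measured by at least 2-fold, and their median difference was -1.20. Ska1, part of the complex that couples kinetochores to microtubule ends, had signals of 183 and 31.0, a difference of -2.28 ± 0.23. That was 4.86-fold lower, or 2.33-fold lower with normexp. The NDC80 complex, the main microtubule binder of the kinetochore, was lower in each of its 4 subunits. Nuf2 had 155 and 43.7, a difference of -1.55 ± 0.22. Spc24 had 339.7 and 117, a difference of -1.26. Ndc80 had 129 and 49.2, a difference of -1.11 ± 0.22, and Spc25 had 805 and 326, a difference of -1.03. All 4 subunits were under 2-fold with normexp, at 1.83-fold, 1.97-fold, 1.49-fold and 1.88-fold lower in that order.

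The inner kinetochore genes had values in the same range. Cenpi, a subunit of the network on centromeric chromatin, had 398 and 122.1, a difference of -1.43 ± 0.21. Cenpk, another subunit of that network, had 376 and 119.9, a difference of -1.37, with -1.47 for a second probe. Cenpa, the histone H3 variant that marks centromeres, had 182 and 68.6, a difference of -1.13, or 1.69-fold lower with normexp. Cenpn, which reads CENP-A nucleosomes, was dim at 41.8 and 16.2, with a difference of -1.10 ± 0.32 that was 1.12-fold lower with normexp. Cenpe, a kinetochore motor gene that stands on the list although other kinesins do not, had 600.4 and 334, a difference of -0.57 ± 0.20. Cenpf, a large protein of the outer kinetochore, had 4.81 and 6.17 and was not well above background on either array, so it has no fold.

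In the group of spindle assembly and bundling, 2 of 5 genes were at least 2-fold lower, and the median difference was -0.72. Prc1, which bundles antiparallel microtubules in the midzone, had signals of 791 and 158, a difference of -2.05 ± 0.21, or 4.13-fold lower. Nusap1, a microtubule-binding protein of the spindle, had 196 and 52.9, a difference of -1.61 ± 0.22, or 1.83-fold lower with normexp. The other 3 did not reach 2-fold. Dlgap5, also known as HURP, which stabilises kinetochore fibres, had 138 and 69.5, a difference of -0.72, with -0.88 for a second probe. Hmmr, a spindle-pole protein and hyaluronan receptor, had 193 and 97.8, a difference of -0.70. Tpx2, the activator of Aurora A on the spindle, had 638 and 379, a difference of -0.47 ± 0.20.

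Of the condensin and mitotic chromosome genes, 4 of the 5 measured were at least 2-fold lower, and the median difference was -1.10. Mki67, which encodes the Ki-67 protein that coats mitotic chromosomes and is the standard marker of proliferating cells, had 1897 and 387, a difference of -2.02 ± 0.20, or 4.05-fold lower. A second bright probe of Mki67, at 1349 and 314, differed by -1.82. Top2a, the topoisomerase that untangles sister chromatids, had 204 and 54.9, a difference of -1.62 ± 0.22, or 1.88-fold lower with normexp. Among these genes, the condensin subunits Smc2, Ncaph and Smc4 were lower by smaller values than Top2a as reported. The order against Top2a turned with normexp for Smc2 and Ncaph. Smc2, a core ATPase of condensin, had 890.0 and 344, a difference of -1.10 ± 0.20. Ncaph, the subunit that links the ATPase heads in condensin I, had 1545 and 632, a difference of -1.01, and Smc4, the partner of Smc2, had 2274 and 1239.9, a difference of -0.60. Ncapg, another subunit of condensin I, had 16.6 on the PBS array against 9.19 on the other, where it was not well above background. Its bound of 1.19-fold lower takes no account of the scanner error, 2.73 on the PBS array, and was not computed with normexp. Smc2 and Ncaph were just under 2-fold with normexp, at 1.93-fold and 1.99-fold lower.

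All 3 cytokinesis genes were at least 2-fold lower, and their median difference was -1.17. Anln, which encodes anillin, the scaffold of the contractile ring, had signals of 1363 and 301, a difference of -1.90 ± 0.20, or 3.74-fold lower. Ect2, the exchange factor that activates RhoA at the cell equator, had 461 and 169, a difference of -1.17. Racgap1, its binding partner in centralspindlin, had 670.3 and 250.3, a difference of -1.14, with -1.26 for a second probe. Ect2 was 1.92-fold lower with normexp, while Anln and Racgap1 stayed past 2-fold.

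Other genes of mitosis were described from lists of 134 genes in 6 groups. Of these, 125 were measured on both arrays, 33 were at least 2-fold lower, or 26.4%, 2 were at least 2-fold higher, and their median difference was -0.36. Together with the 50 genes they made up 65 of the 268 genes that were at least 2-fold lower, or 24.3%. Kinetochore genes outside the 50 had a median of -0.56, with 11 of 31 at least 2-fold lower. The largest differences there were those of Kntc1 and Zwilch, of the complex that recruits the checkpoint to kinetochores, at -1.80 and -1.63, and of Nsl1, of the MIS12 complex, at -1.73. Condensin, cohesin and cohesion genes had 7 of 20 at least 2-fold lower and a median difference of -0.29. They were led by the cohesin acetyltransferase gene Esco2 at -1.92, the condensin II gene Ncapg2 at -1.76 and the shugoshin gene Sgo1 at -1.71.

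Spindle and centrosome genes had 6 of 33 at least 2-fold lower, 1 higher and a median difference of -0.47. Aspm, a spindle-pole protein, differed by -2.00, the centrosomal kinase gene Nek2 by -1.64 and the spindle gene Ckap2l was 2.83-fold lower. The 1 higher was Sass6, a centriole assembly gene named after its value was seen, at 1.22. Of the genes of mitotic entry, exit and the MuvB complexes, 5 of 19 were at least 2-fold lower and the median difference was -0.53. Mybl2, which encodes B-MYB, was 2.83-fold lower. Wee1, the inhibitory kinase of Cdk1, differed by -1.49, and Cdca2, a phosphatase-binding protein of chromosomes, by -1.40. Of 6 measured cytokinesis genes 2 were at least 2-fold lower, Shcbp1 at -1.77 and Depdc1a at -1.43, and 1 was higher, the ESCRT-III gene Chmp4b at 1.15, which was under 2-fold with median scaling.

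The anaphase-promoting complex and checkpoint list stood apart in its median, -0.04, which was close to that of all genes. At least 2-fold lower were 2 of the 16 genes measured, neither of which encodes a subunit of the complex. Fbxo5, which encodes EMI1, the inhibitor of the complex in S phase and G2, differed by -2.09, and Trip13, the ATPase that disassembles the checkpoint complex, by -1.53. The next in size was the checkpoint gene Mad1l1 at -0.42.

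**Figure D4:**
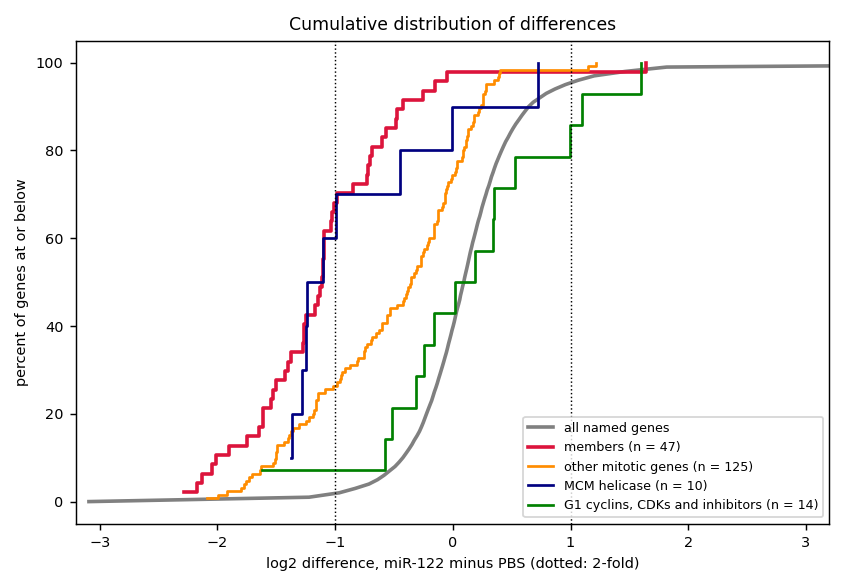
Cumulative percent of genes at or below each log2 difference, for all 15030 named genes (grey), the 47 measured mitotic genes (red), 125 other mitotic genes (orange), 10 MCM helicase genes (blue) and 14 G1 cyclin, CDK and inhibitor genes (green). The red line lies far to the left of the grey one, with medians of -1.11 and 0.09, the blue line has a median of -1.17, and the green line has one of 0.10.

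Genes of other cell cycle phases were set beside them. The MCM helicase genes, which act in DNA replication, had a median of -1.17, with 6 of 10 at least 2-fold lower, led by Mcm7 at -1.37 and Mcm2 at -1.36. Low values were thus not limited to genes of mitosis. The G1 cyclins, their kinases and inhibitors had a median of 0.10, which turned negative with median scaling, with 1 of 14 at least 2-fold lower and 2 higher. The lower gene was Ccne2, a cyclin E gene of S phase entry, at -1.62, and the higher ones were the D-type cyclin genes Ccnd2 at 1.60 and Ccnd1 at 1.09, the latter named after its value was seen and under 2-fold with median scaling. Of 19 housekeeping genes none was past 2-fold in either direction under the scaling used, and their median was 0.04, which also turned with median scaling. The largest were 0.78 for B2m and -0.67 for Tfrc, and the differences were 0.21 for Actb, 0.18 for Gapdh and -0.25 for Hprt.

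The promoter letters were counted in windows of 300 bases, from 250 before to 50 after each RefSeq start on GRCm38.p6, for 27025 genes. A window was found for 39 of the 50 genes and for 11 it was not. The CHR was searched as TTTGAA or TTCGAA and the CCAAT box as CCAAT, on both strands, so that TTCAAA and ATTGG also count, and matches of the 2 kinds may overlap. Of the 39 genes 28 held a CHR match, or 71.8%, against 21.7% of all genes with a window. A CCAAT match was found in 30, or 76.9%, against 41.1% of all genes. A CHR together with at least 2 CCAAT matches was found in 17, or 43.6%, against 2.68% of all genes. Of 38 distinct CHR matches in the windows of these genes, 26 began between 60 bases before and 40 after the nearest annotated start. The E2F letters TTTCCCGC, TTTCGCGC, TTTGCCGC and TTTGGCGC were found in 2 of the 39 genes, Cdk1 and Ncapg, or 5.13%, against 2.60% of all genes. A match is a description of letters and not a bound site.

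Within the mitotic genes the letters did not separate lower from less lower values, a comparison chosen after the data were seen. Of 25 measured genes with a CHR match, 18 were at least 2-fold lower, with a median difference of -1.11. Of 11 without one, 9 were at least 2-fold lower, Pttg1 was higher, and the median difference was -1.37. Genes without these CHR spellings in the window include Birc5, Nuf2, Nusap1, Melk and Mad2l1. All other measured genes with a window still include other genes of mitosis, such as Fbxo5. Among these other genes, 2.45% of those with a CHR match and 1.35% of those without were at least 2-fold lower. With a CHR and at least 2 CCAAT matches it was 15 of 308, or 4.87%, against 1.46% of the rest. With the E2F letters it was 26 of 478, or 5.44%, against 1.39% of those without them. Most genes that carry these letters were thus not 2-fold lower on the miR-122 array.

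**Figure D5:**
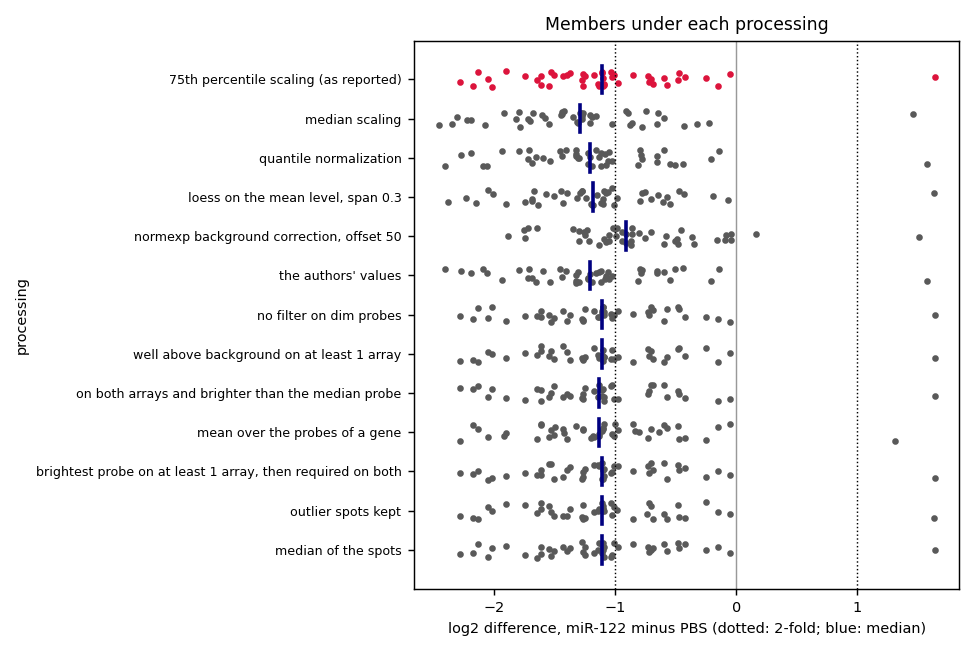
Log2 difference of each measured gene (points) under the reported processing (red) and 12 alternatives (grey), with the median of the genes as a blue bar and dotted lines at 2-fold. The medians lie between -1.29 with median scaling and -0.91 with normexp background correction, and Pttg1 is the isolated point on the right in each row.

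Over the 13 settings compared at 2-fold, 18 genes were at least 2-fold lower in each setting that measured them, and 45 had a negative difference in each. The 2 others were Pttg1 and Cdc25c. As reported, 39.7% of all named genes had a negative difference and 1.78% were at least 2-fold lower. These shares are for 1 setting, and the like shares over every setting are not given here. With median scaling the median of all named genes was -0.08, so the share with a negative difference was larger there. The filter, probe and spot settings hardly move a gene with 1 probe at 1 spot. Counts with the authors' values equalled those with quantile normalization. A cutoff of 60 for the signal on the miR-122 array, chosen after the values were seen, separated dim from brighter genes. Of the 10 genes under it 7 were at least 2-fold lower as reported and 2 with normexp, and of the 37 others 25 and 17 were. The offset added with normexp by construction makes the differences of dim genes smaller. The split therefore cannot tell whether the differences of the dim genes are reliable.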

How the data were processed

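The authors deposited scanner output, whose spot intensities were made with Agilent Feature Extraction 11.0.1.1, background-subtracted and detrended, per the file headers. The deposited series matrix holds the authors' log2 values. How they were normalized is not stated in these sources, and both columns have a median of 5.16. Counts of genes past 2-fold with these values equalled those with quantile normalization, so they are not separate checks. RIPA buffer is the only extraction step the labels give. Control and outlier spots were left out, spots of a probe were averaged on the log2 scale, and the 75th percentile of each array was subtracted. Probe accessions were matched without versions to RefSeq names of GRCm38.p6, which named 27232 of 39427 probes and 20659 genes. Each gene is represented by its brightest probe, by mean log2 signal, among probes that the software marked well above background on both arrays. A gene well above background on 1 array only has a bound: its value there against a floor on the other array, which is its own signal or the lowest probe signal called above background, as a mean of log2 spots, whichever is larger. Genes past 2-fold were counted with no test, since precision is limited by the number of arrays. Named were all 50 genes, the 3 largest absolute differences of each wider list, the 2 largest of each comparator list, and Actb, Gapdh and Hprt. The genes and lists were chosen with earlier results of these data known. Alternatives were other scalings, normexp on the median spot and background intensities with an offset of 50, the authors' values, other filters, probe and spot rules, and cutoffs of 1.5-fold and 4-fold. The counting was tested on simulated data, made from the PBS array with known differences and spot noise added. That covers the counting step only, and not the spread between arrays or cultures or the loss of dim probes. R 4.3.3, limma 3.58.1, Python 3.11.15, numpy 2.4.6 and pandas 2.3.3 were used.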

Additional observations from a re-analysis of the deposited data

How the results depend on the processing

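With 1 array per group no array could be left out, and only technical choices could be varied. No paired analysis was possible because each group has 1 array and no test was run. Of the mitotic genes, 32 were at least 2-fold lower as reported, 19 with normexp, and 31 to 34 under the other scalings, filters and probe rules. At 4-fold 5 were lower and 0 higher, and at 1.5-fold 39 were lower. Of the other mitotic genes, 33 were at least 2-fold lower as reported, 15 with normexp, 51 at 1.5-fold and 1 at 4-fold. Over all named genes, 1.78% were at least 2-fold lower and 4.57% higher as reported, 0.951% and 2.58% with normexp, and 2.18% and 6.57% without a filter on dim probes. At 1.5-fold these were 5.99% and 12.1%, at 4-fold 0.113% and 0.812%, and with median scaling 3.03% were at least 2-fold lower. As counts, 268 genes were lower and 687 higher as reported, 143 and 388 with normexp, 451 and 1357 without the filter, and 456 lower with median scaling. The sign of Cdc25c turned with normexp, to 0.16. Of the genes past 2-fold as reported, 13 were not so with normexp and Mad2l1 was not as the mean over its probes, while Ccnb2 and Ttk passed 2-fold under other scalings. Normexp used the median spot signal because the mean spot signal is not among the columns used here. Planned counts of letters in proteins were not run because protein sequences were not used here.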
